A study of Homo sapiens with 9 samples.

Results

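Protein-coding genes with a symbol from PSMA to PSMG followed by a number encode the subunits, activators and assembly chaperones of the proteasome. The rule found 48 such genes among the 36018 genes counted. RNA was sequenced from HCT-15, a long-established line of human colorectal adenocarcinoma cells, in 9 libraries labelled WT in genotype and grown in RPMI medium with 10% fetal bovine serum. The 3 control libraries are labelled as having no treatment. The other groups, of 3 libraries each, are lines derived from HCT-15 by stepwise exposure until they tolerated the agent: CoCl2 (cobalt chloride, which stabilises hypoxia-inducible factors) or low glucose. Each tolerant group is 1 derived line, the labels do not say that its libraries came from separate cultures or whether the agent was present at harvest, and p-values therefore measure the spread between these libraries only.

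The proteasome degrades proteins that carry ubiquitin chains. Its 20S core is a barrel of outer rings of alpha subunits and inner rings of beta subunits, and only PSMB5 (chymotrypsin-like), PSMB6 (caspase-like) and PSMB7 (trypsin-like) among the constitutive beta subunits cut peptide bonds. Interferon can lead cells to build an immunoproteasome instead, in which PSMB8 replaces PSMB5, PSMB9 replaces PSMB6 and PSMB10 replaces PSMB7, and which trims peptides suited to MHC class I. The 19S cap, made of PSMC ATPases and PSMD subunits, recognises ubiquitin, unfolds the substrate and opens the core, while PSME proteins form alternative caps and PSMG proteins build the alpha ring. Transcription of the constitutive genes is known to be raised by the transcription factor NFE2L1 through antioxidant response elements when proteasome capacity falls short.

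Promoter windows from RefSeq (GRCh38.p14, 250 bases before to 50 bases after each start) were matched for 42 of the 48 members, with 51 windows in all. PSMA7, PSMB1, PSMB6, PSMB7, PSMD4 and PSMG3 had none. Windows were searched on both strands for GAAA, any bases at NN and GAAA again, the letters of an interferon-stimulated response element. This motif was in 3.57% of all 35116 windows, and in a window of 7 of the 42 member genes (16.7%, against 4.38% of all 27305 genes). In 5 of these 7 members the matched letters were identical, read on one strand or the other. The stretches are 30 bases on the strand of the gene, with the match in capitals. They are shown because PSMB8, PSMB10 and PSME1 were among the members called higher in low-glucose-tolerant than in control libraries. PSMB9, also called higher there, had a window without a match, and PSME2, with a match, was not called.
PSMB8 (chr6:32844032-32844061, minus strand): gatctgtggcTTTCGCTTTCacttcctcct
PSMB10 (chr16:67936852-67936881, minus strand): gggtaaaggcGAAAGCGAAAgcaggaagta
PSME1 (chr14:24136189-24136218, plus strand): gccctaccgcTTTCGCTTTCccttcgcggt
PSME2 (chr14:24146619-24146648, minus strand): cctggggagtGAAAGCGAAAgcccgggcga
PSMG4 (chr6:3258904-3258933, plus strand): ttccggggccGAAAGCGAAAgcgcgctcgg
PSMA4 (chr15:78540155-78540184, plus strand): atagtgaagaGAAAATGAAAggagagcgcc
PSMB4 (chr1:151399495-151399524, plus strand): tcgtctacagGAAAAAGAAAgaaatgacac

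The match begins 4 bases before the start in PSMB8, 21 before in PSMB10, 28 before in PSME2 and 33 before in PSMG4, and begins 5 bases after the start in PSME1. PSMB8 and PSME1 carry it on the opposite strand. It begins 240 bases before 1 start of PSMA4 and 68 before that of PSMB4. The stretches of PSMB8, PSMB10, PSME1, PSME2 and PSMG4 overlap an annotated exon of their own gene, and those of PSMA4 and PSMB4 overlap none. Calls are from edgeR's quasi-likelihood test (adjusted p under 0.05, over all genes). In low-glucose-tolerant against control libraries, 5 of the 7 members with a match were higher and 1 lower. Of 33 tested members without a match, 13 were higher and 6 lower. Of all genes, 34.6% were called higher and 34.6% lower there. In CoCl2-tolerant libraries 2 of 7 with a match and 16 of 33 without one were higher, where 17.9% of all genes were. A match is a string of letters and says nothing of binding.

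The core letters of an antioxidant response element, TGACNNNGC, were in a window of 15 of the 42 members (35.7%, against 16.1% of all genes), on either strand. The 5 of these that were called higher in CoCl2-tolerant libraries are shown, with PSMD9 holding the letters at 2 places, and with PSMA4, whose level differed most between the tolerant lines.
PSMB3 (chr17:38752627-38752656, plus strand): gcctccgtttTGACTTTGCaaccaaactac
PSMC4 (chr19:39971182-39971211, plus strand): acagaggccgGCTTGGTCActatggaggag
PSMC5 (chr17:63827654-63827683, plus strand): gaccggatctGCTGTGTCAgcgccgccctc
PSMD9 (chr12:121888631-121888660, plus strand): cgctactcctGCCGGGTCAccacaggcgca
PSMD9 (chr12:121888678-121888707, plus strand): cggcttccggTGACCCAGCtccgccctaag
PSMD12 (chr17:67366723-67366752, minus strand): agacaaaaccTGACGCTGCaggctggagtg
PSMA4 (chr15:78540650-78540679, plus strand): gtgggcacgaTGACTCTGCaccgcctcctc

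The letters read on the opposite strand in PSMC4, PSMC5 and the upstream place of PSMD9. The PSMC4 and PSMA4 stretches overlap an exon of their own gene, and that of PSMC5 also one of FTSJ3. In CoCl2-tolerant libraries 5 of 15 members with the motif and 13 of 25 tested members without it were called higher. Their median log2 differences were 0.28 and 0.35, and 17.9% of all genes were called higher there. In low-glucose-tolerant libraries 6 were higher and 4 lower of the 15 with it, and 12 higher and 3 lower of the 25 without it. There 34.6% of all genes were higher and 34.6% lower. The CCAAT box, bound by NF-Y, was in a window of 20 members (47.6%, against 39.7% of all genes). Of the tested members, 6 of 19 with CCAAT and 12 of 21 without it were called higher in CoCl2-tolerant libraries. In low-glucose-tolerant libraries 7 were higher and 4 lower of the 19 with CCAAT, and 11 higher and 3 lower of the 21 without it.

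Depth ranged from 25178615 to 32674687 counts per library, and 46 of the 48 members passed the low-count filter. Levels are CPM, a gene's counts scaled to a common library total, after adjusting totals by trimmed means of M values. Differences were tested with edgeR's quasi-likelihood test over 17902 genes with Benjamini-Hochberg adjustment, and a gene was called at an adjusted p under 0.05. PSMA8, a testis alpha subunit, had 1 count in the 9 libraries. PSMB11, the beta subunit of the thymus, had 3 counts in control, 4 in CoCl2-tolerant and 0 in low-glucose-tolerant libraries. Of 12 leukocyte markers, 9 were under 1 CPM in every library, and the list summed to 4.88 to 6.17 CPM in control libraries, 1.89 to 4.80 CPM in the CoCl2-tolerant group and 2.65 to 4.35 CPM in the low-glucose-tolerant group. Of 15 epithelial and intestinal markers, EPCAM, CDH1, KRT8, KRT18, KRT19, GPA33 and LGR5 reached 1 CPM in some library, while 8 (KRT20, CDX1, CDX2, VIL1, CDH17, MUC2, FABP1, LGALS4) were below it throughout. The mean sum of that list was 1391 CPM in control, 1529 CPM in the CoCl2-tolerant group and 2878 CPM in the low-glucose-tolerant group. Of 7 tested, 3 were higher and 3 lower in low-glucose-tolerant libraries (log2 -4.24 to 2.42), where 34.6% of all genes were called in each direction. In CoCl2-tolerant libraries 1 was higher and 5 lower, where 17.9% of all genes were higher and 18.2% lower. KRT18 was higher in low-glucose-tolerant libraries (log2 2.42), and EPCAM and CDH1 were lower in CoCl2-tolerant ones (-1.33 and -3.66). The part of these markers in the results was not tested. Of 8 fibroblast markers, 4 were under 1 CPM in every library, and the list summed to 1834 to 1882 CPM in control libraries, 242 to 274 CPM in the CoCl2-tolerant group and 25.5 to 35.6 CPM in the low-glucose-tolerant group. COL1A1 makes up nearly all of that sum in control, and other markers of the list moved differently: in low-glucose-tolerant libraries DCN was higher (log2 3.78, on 4 counts in control and 54 there), and PDGFRB (-0.06) and COL1A2 (0.19) were not called.

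In the CoCl2-tolerant line, all calls among proteasome genes were in the higher direction. Of 46 members tested, 22 were called higher and 0 lower (47.8% higher), where 36.1% of all genes were called, 17.9% higher and 18.2% lower. DESeq2 also called 22 higher and 0 lower. The median log2 difference of the members was 0.34, beside 0.01 over all genes. All 3 CoCl2-tolerant libraries lay above all 3 control libraries for 37 members (80.4%), against 28.3% of all genes, and below them for PSMD5. Groups did not overlap for 57.2% of all genes. By role, those called were 5 of 6 ATPases, 8 of 11 non-ATPase subunits, 4 of 7 constitutive beta subunits, 3 of 7 alpha subunits, PSMB10 among 3 immunoproteasome subunits, PSMD9 among 3 base chaperones, and 0 of 5 activators or inhibitors and 0 of 4 core chaperones.

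Low-glucose-tolerant libraries showed a mixed picture. Of the 46 members, 22 were called higher and 7 lower (63.0% in all), where 69.2% of all genes were called, 34.6% higher and 34.6% lower. The share of members called was thus no higher than that of all genes. Their median log2 difference was 0.31, beside -0.01 over all genes. All 3 immunoproteasome subunits, all 4 core chaperones, 4 of 7 constitutive beta subunits, 3 of 6 ATPases and 4 of 11 non-ATPase subunits were higher. Lower were 3 of 7 alpha subunits, 3 of 11 non-ATPase subunits and PSME4. All 3 low-glucose-tolerant libraries lay above control for 22 members (47.8%, against 36.4% of all genes) and below it for 7 (15.2%, against 36.9%), and 73.3% of all genes did not overlap. Both comparisons share the control libraries, so they are given side by side. There were 11 members called higher in both (PSMB4, PSMB7, PSMB10, PSMC1, PSMC2, PSMC4, PSMD4, PSMD7, PSMD8, PSMD9 and PSMD13), and 1, PSMD12, was higher in CoCl2-tolerant and lower in low-glucose-tolerant libraries.

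**Figure D1:**
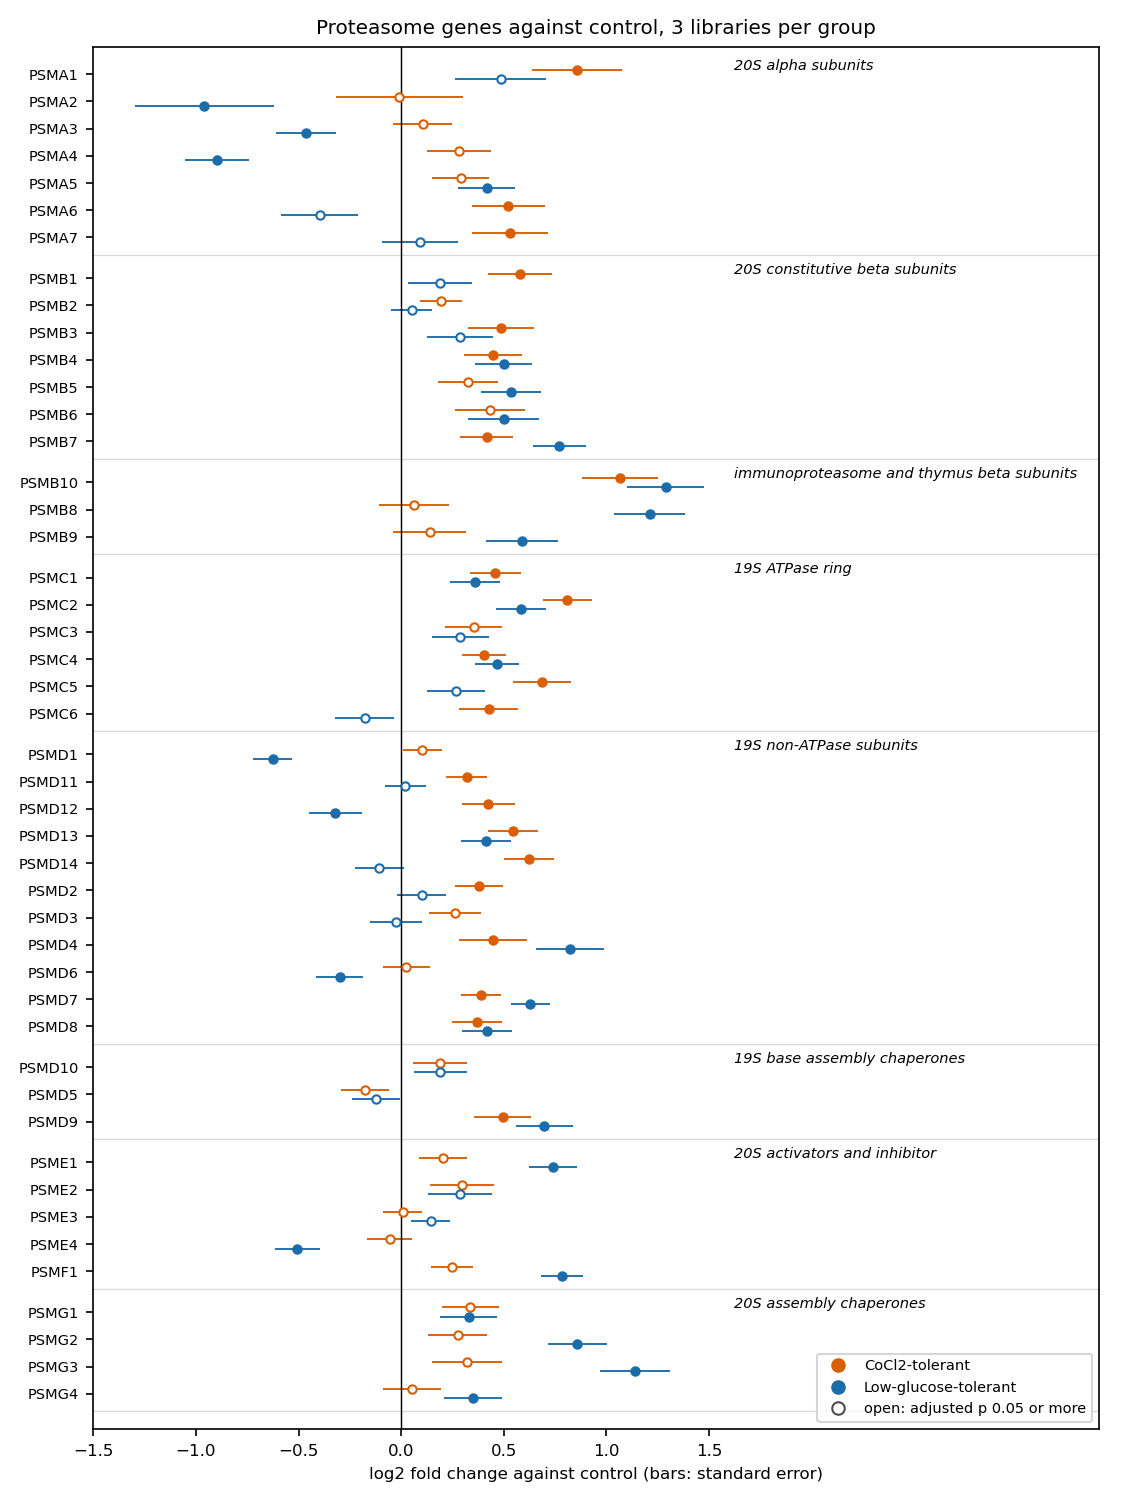
The log2 fold change against control (x axis, bars are standard errors, 3 libraries per group) of the 46 tested members, grouped by role, in CoCl2-tolerant (orange) and low-glucose-tolerant libraries (blue), with filled points for an adjusted p under 0.05. In CoCl2-tolerant libraries the 22 filled points all lie right of 0, while 7 of the 29 filled points in low-glucose-tolerant libraries lie left of it.

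The summed level of the 48 members was 3966, 3975 and 4001 CPM in control, 5506, 4722 and 4938 CPM in CoCl2-tolerant and 4661, 4131 and 5358 CPM in low-glucose-tolerant libraries. Control libraries were within 1% of each other, and every library of a tolerant line lay above them. CoCl2-tolerant replicate 1 and low-glucose-tolerant replicate 3 were the highest of their groups and low-glucose-tolerant replicate 2 the lowest of its own. In bulk RNA, a different share of cells of some kind and a different amount of RNA per cell cannot be told apart.

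**Figure D2:**
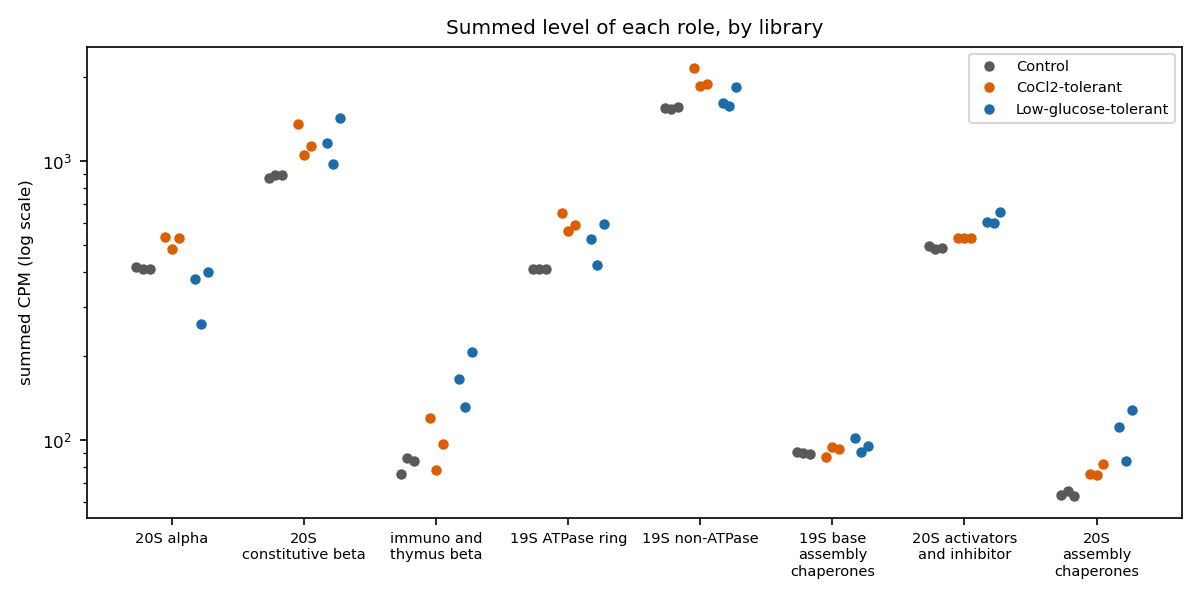
Summed CPM of the members of each role (y axis, log scale) in each library, 1 point per library and 3 per group. The alpha subunits are the role whose low-glucose-tolerant libraries all lie below the control libraries, while the immunoproteasome subunits, the activators with the inhibitor and the core chaperones are highest there.

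The catalytic subunits differed in level by line. PSMB8, the immunoproteasome's chymotrypsin-like subunit, was 2.32 times control in the low-glucose-tolerant line, and PSMB10 was raised in both. PSMB8 (chr6:32840717-32844703, minus strand, GRCh38) measured 39.6, 45.4 and 44.1 CPM in the control libraries, 54.5, 34.1 and 46.3 CPM in the CoCl2-tolerant libraries and 98.1, 79.2 and 122 CPM in the low-glucose-tolerant libraries. Its low-glucose-tolerant libraries lay above all others, while the CoCl2-tolerant libraries surrounded the control values. The log2 difference from control was 1.21 ± 0.17 (SE; adjusted p = 2.22e-05) in low-glucose-tolerant and 0.06 ± 0.17 (adjusted p = 0.802) in CoCl2-tolerant libraries, and that between the tolerant lines was -1.15 ± 0.17 (adjusted p = 4.69e-05).

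PSMB9, whose gene lies beside PSMB8 and TAP1 in the MHC region (chr6:32844136-32859585, plus strand), measured 26.7, 28.9 and 30.2 CPM in control, 38.9, 26 and 29.6 in CoCl2-tolerant and 43.5, 32.1 and 53.3 in low-glucose-tolerant libraries. Its rise in low-glucose-tolerant libraries was smaller (0.59 ± 0.18, adjusted p = 0.00841), without overlap with control, and CoCl2-tolerant libraries overlapped control (0.14 ± 0.18, adjusted p = 0.57). PSMB10 (chr16:67934502-67937087, minus strand) measured 9.14, 11.8 and 10.1 CPM in control, 26.6, 17.7 and 20.8 in CoCl2-tolerant and 24, 19.9 and 32.1 in low-glucose-tolerant libraries. It was above control in all 6 tolerant libraries, by 1.07 ± 0.19 (adjusted p = 0.000586) in CoCl2-tolerant and 1.29 ± 0.19 (adjusted p = 2.53e-05) in low-glucose-tolerant libraries. The tolerant lines did not differ beyond the threshold in PSMB10 (-0.22 ± 0.18, adjusted p = 0.294). It was the only member whose log2 difference passed 1 in CoCl2-tolerant libraries, and 45.3% of its main mRNA lies in exons of another annotated gene, so reads of the pair cannot be separated without the strand setting, which is not given in the sources used here.

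Among the constitutive partners, PSMB5 measured 99.6, 103 and 102 CPM in control, 153, 109 and 119 in CoCl2-tolerant and 141, 123 and 177 in low-glucose-tolerant libraries. It was called in low-glucose-tolerant libraries (0.54 ± 0.15, adjusted p = 0.00453) and missed the threshold in CoCl2-tolerant ones (0.32 ± 0.15, adjusted p = 0.0957), although all 3 lay above control. PSMB6 measured 73.2, 83 and 79.4 CPM in control, 131, 86.7 and 100 in CoCl2-tolerant and 107, 85.6 and 140 in low-glucose-tolerant libraries, with the same pattern of calls (0.50 ± 0.17, adjusted p = 0.0186, and 0.43 ± 0.17, adjusted p = 0.0642). PSMB7 measured 114, 117 and 114 CPM in control, 176, 138 and 146 in CoCl2-tolerant and 181, 175 and 233 in low-glucose-tolerant libraries. Its rise was called in both lines (0.42 ± 0.13, adjusted p = 0.0206 in CoCl2-tolerant and 0.77 ± 0.13, adjusted p = 9.11e-05 in low-glucose-tolerant). It was higher in low-glucose-tolerant than in CoCl2-tolerant libraries (-0.35 ± 0.13, CoCl2-tolerant minus low-glucose-tolerant, adjusted p = 0.0245). The CoCl2-tolerant call of PSMB7 was lost in 5 alternative settings and kept in 13, and that between the lines was lost in 7 and kept in 11. Per kilobase of main mRNA in control libraries, PSMB5 was at 78.4, PSMB6 at 92.2 and PSMB7 at 117 CPM, and PSMB8 at 38.3, PSMB9 at 36.6 and PSMB10 at 8.50 CPM.

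**Figure D3:**
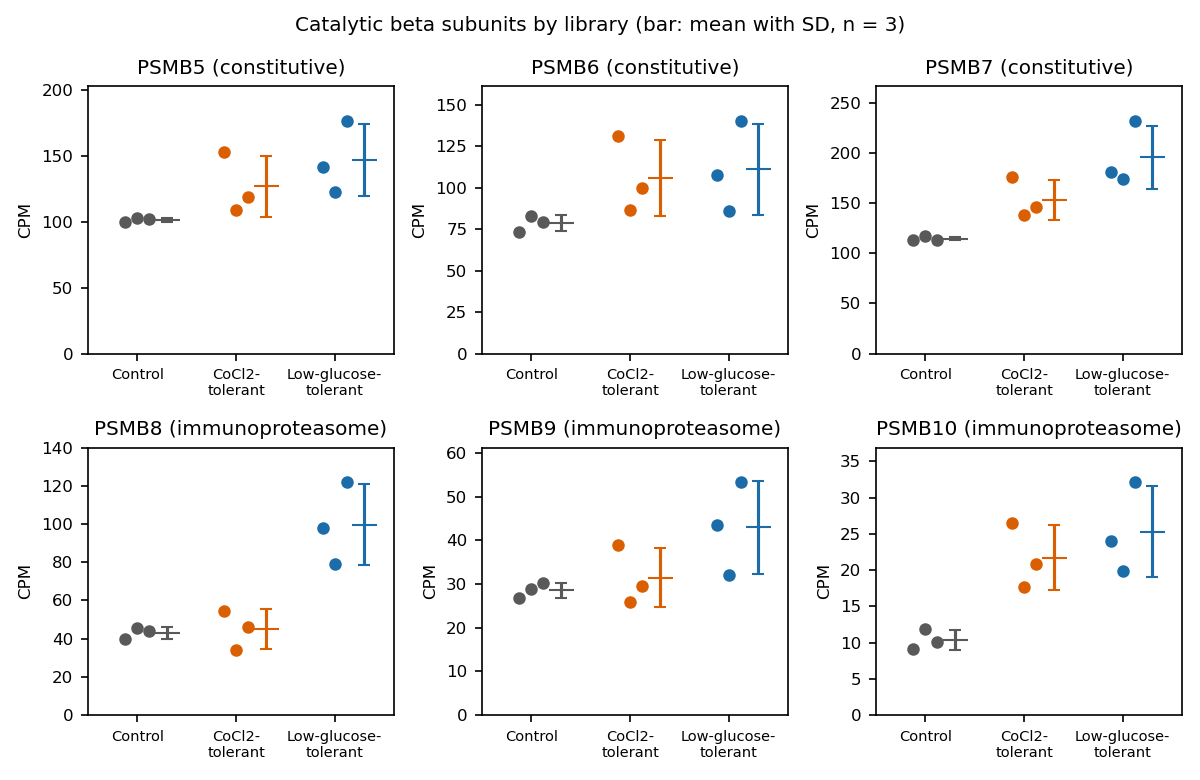
CPM (y axis, from 0) of the 3 constitutive catalytic subunits (top) and their immunoproteasome replacements (bottom) in each of the 9 libraries, with group means and SD (n = 3). PSMB8 stands above control in the low-glucose-tolerant line alone, with CoCl2-tolerant libraries at 34.1 to 54.5 CPM, while PSMB10 is above control in both lines.

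The ratio of counts between each replacement and the constitutive subunit of the same position removes library scaling. PSMB8 to PSMB5 was 0.398, 0.443 and 0.433 in control, 0.356, 0.313 and 0.390 in CoCl2-tolerant and 0.694, 0.646 and 0.689 in low-glucose-tolerant libraries. The 3 groups did not overlap: it was highest in low-glucose-tolerant libraries (1.59 times control) and lowest in CoCl2-tolerant ones (0.829 times control). PSMB9 to PSMB6 was 0.365, 0.348 and 0.380 in control, 0.296, 0.299 and 0.296 in CoCl2-tolerant and 0.405, 0.375 and 0.380 in low-glucose-tolerant libraries. It was lower than control in all CoCl2-tolerant libraries, and low-glucose-tolerant libraries overlapped control. PSMB10 to PSMB7 was 0.0804, 0.101 and 0.0889 in control, 0.151, 0.129 and 0.143 in CoCl2-tolerant and 0.133, 0.114 and 0.138 in low-glucose-tolerant libraries, above control in both lines. In the exact two-sided permutation test 7 of 9 comparisons gave p = 0.1, the smallest 3 against 3 allows, which is 0.129 after adjustment over the 9. PSMB9 to PSMB6 in low-glucose-tolerant against control gave an exact p = 0.2, and PSMB10 to PSMB7 between the tolerant lines an exact p = 0.3.

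**Figure D4:**
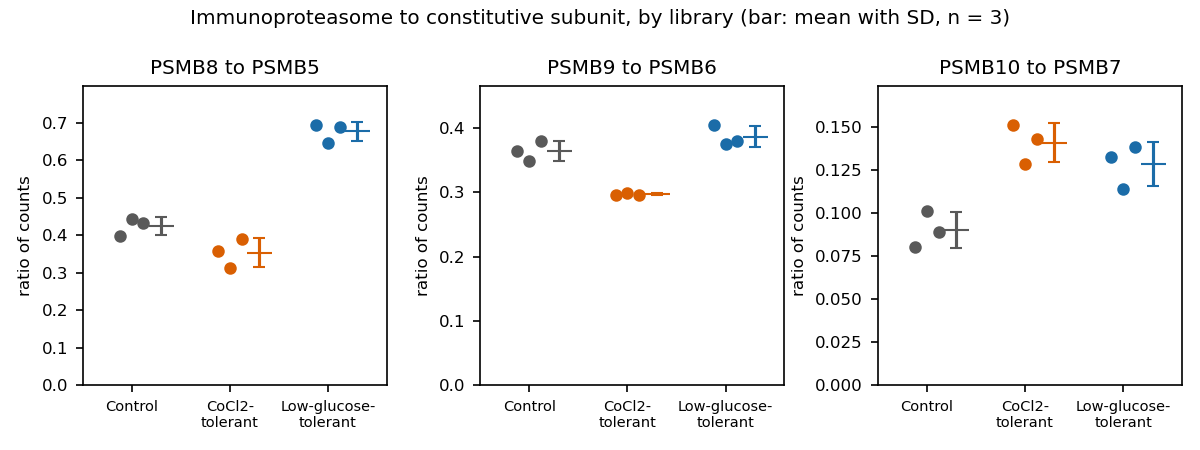
Ratio of counts of immunoproteasome to constitutive subunit (y axis, from 0) in each library, with mean and SD (n = 3). PSMB8 to PSMB5 is highest in low-glucose-tolerant libraries (0.646 to 0.694) and lowest in CoCl2-tolerant ones, while PSMB10 to PSMB7 is raised in both.

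Other constitutive beta subunits, which shape the ring without cutting, were also mostly higher in CoCl2-tolerant libraries. PSMB1, PSMB3 and PSMB4 were called higher there, with log2 differences of 0.58, 0.48 and 0.45, and PSMB2 was not (0.19 ± 0.10, adjusted p = 0.148). In low-glucose-tolerant libraries only PSMB4 of these was called (0.50 ± 0.14, adjusted p = 0.00568).

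Alpha subunits, which gate the core, had 3 of 7 called higher and 0 lower in CoCl2-tolerant libraries, and 1 higher and 3 lower in low-glucose-tolerant ones. In CoCl2-tolerant libraries 17.9% of all genes were higher and 18.2% lower. In low-glucose-tolerant ones 57.1% of alpha subunits were called, against 69.2% of all genes, and 42.9% were lower, against 34.6%. PSMA4 measured 170, 150 and 157 CPM in control, 173, 200 and 206 in CoCl2-tolerant and 104, 61.4 and 90.9 in low-glucose-tolerant libraries. Its low-glucose-tolerant libraries were below all control libraries (-0.90 ± 0.16, adjusted p = 0.000143), and CoCl2-tolerant libraries were above them without being called (0.28 ± 0.16, adjusted p = 0.173). The difference between the tolerant lines, 1.18 ± 0.16 (adjusted p = 1.54e-05), was the largest in size of any member. PSMA3 measured 80.8, 80.1 and 82.7 CPM in control, 87, 84.7 and 90.2 in CoCl2-tolerant and 70.9, 43.1 and 62.8 in low-glucose-tolerant libraries, lower in low-glucose-tolerant libraries (-0.46 ± 0.15, adjusted p = 0.0113). PSMA5 measured 67.1, 72.1 and 65.9 CPM in control, 94.4, 71.9 and 84.3 in CoCl2-tolerant and 94.4, 73.5 and 106 in low-glucose-tolerant libraries and was the only alpha subunit called higher there (0.42 ± 0.14, adjusted p = 0.015), while PSMA7 was called only in CoCl2-tolerant libraries (0.53 ± 0.18, adjusted p = 0.0368).

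Levels of 3 alpha subunits are uncertain. PSMA1, PSMA2 and PSMA6 measured 5.24 to 13.96, 0.362 to 1.30 and 1.99 to 5.48 CPM over the 9 libraries, against 43.1 to 206 CPM for PSMA3, PSMA4, PSMA5 and PSMA7. The annotation places 53.2%, 54.1% and 81% of their main mRNA in exons of other genes. PSMA1 and PSMA6 were called higher in CoCl2-tolerant libraries (0.86 ± 0.22 and 0.52 ± 0.18), and PSMA2 lower in low-glucose-tolerant ones (-0.96 ± 0.34, adjusted p = 0.0207) on 44 to 96 counts per group. Without the 5 members over 50% overlapped, an alternative added after the data were seen, 18 of 41 were higher and 0 lower in CoCl2-tolerant libraries, and 20 higher and 6 lower in low-glucose-tolerant ones.

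The ATPases that drive unfolding had the highest share called in CoCl2-tolerant libraries. PSMC2 (chr7:103344254-103369395, plus strand) measured 61.7, 63.6 and 62 CPM in control, 116, 104 and 109 in CoCl2-tolerant and 103, 75.9 and 101 in low-glucose-tolerant libraries. All 6 tolerant libraries lay above control, by 0.81 ± 0.12 (adjusted p = 0.000166) and 0.58 ± 0.12 (adjusted p = 0.000635). PSMC5 measured 119, 120 and 117 CPM in control, 213, 173 and 187 in CoCl2-tolerant and 142, 112 and 175 in low-glucose-tolerant libraries. It was called in CoCl2-tolerant libraries (0.69 ± 0.14, adjusted p = 0.00189), missed the threshold in low-glucose-tolerant ones (0.27 ± 0.14, adjusted p = 0.104) and differed between the lines (0.42 ± 0.14, adjusted p = 0.0174). The annotation places 27.2% of its mRNA in exons of FTSJ3. PSMC6 was called higher in CoCl2-tolerant libraries (0.43 ± 0.14, adjusted p = 0.0317), where its 3 libraries measured 51.9, 52.4 and 52.5 CPM against 40.6, 38.9 and 37.2 in control. PSMC1 and PSMC4 were higher in both lines, by 0.46 and 0.40 in CoCl2-tolerant libraries. PSMC1 has 82.2% of its mRNA in exons of another gene, NRDE2, and 7 annotated pseudogenes. PSMC3 passed in neither.

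Non-ATPase subunits of the cap hold the lid and the ubiquitin receptors. PSMD14, the deubiquitinase of the lid that removes ubiquitin before entry, measured 93.5, 93.5 and 90.5 CPM in control, 148, 135 and 144 in CoCl2-tolerant and 95, 69.3 and 93.6 in low-glucose-tolerant libraries. CoCl2-tolerant libraries lay above control and low-glucose-tolerant libraries overlapped it (0.62 ± 0.12, adjusted p = 0.00129; -0.11 ± 0.12, adjusted p = 0.447 in low-glucose-tolerant), and the lines differed by 0.73 ± 0.12 (adjusted p = 0.000117). PSMD4, a ubiquitin receptor, measured 154, 164 and 161 CPM in control, 276, 181 and 198 in CoCl2-tolerant and 268, 230 and 348 in low-glucose-tolerant libraries. It was called in both, by 0.45 ± 0.16 (adjusted p = 0.0463) in CoCl2-tolerant and 0.82 ± 0.17 (adjusted p = 0.000492) in low-glucose-tolerant libraries. Its CoCl2-tolerant call was lost in 8 alternative settings and kept in 10. PSMD1, a large scaffold of the base, measured 218, 217 and 216 CPM in control, 225, 233 and 240 in CoCl2-tolerant and 148, 131 and 142 in low-glucose-tolerant libraries. It was lower in low-glucose-tolerant libraries (-0.63 ± 0.10, adjusted p = 4.12e-05) and not called in CoCl2-tolerant ones (0.10 ± 0.09, adjusted p = 0.424), the largest called fall among the cap subunits.

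PSMD12, of the lid, was higher in CoCl2-tolerant (0.42 ± 0.13, adjusted p = 0.0197) and lower in low-glucose-tolerant libraries (-0.32 ± 0.13, adjusted p = 0.0379), so the lines differed by 0.75 ± 0.13. Its fall depends on setting: with a length and GC trend removed the low-glucose value was 0.02, and with the replicate block its adjusted p was 0.0568. Over all alternatives run, the low-glucose-tolerant call was kept in 10, lost in 7 and changed sign without being called in 1. The CoCl2-tolerant call of PSMD12 was lost in 4 and kept in 14. PSMD6 was lower in low-glucose-tolerant libraries (-0.30 ± 0.12, adjusted p = 0.0318). PSMD7, PSMD8 and PSMD13 were higher in both lines, and PSMD2 and PSMD11 passed in CoCl2-tolerant libraries. PSMD3 passed in neither. Exons of other genes cover 50.4% of the PSMD7 mRNA and 15.9% of that of PSMD13.

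Base chaperones assemble the ATPase ring. PSMD9 measured 14, 12.5 and 12.4 CPM in control, 18.2, 17 and 19.7 in CoCl2-tolerant and 20.8, 17.4 and 25.1 in low-glucose-tolerant libraries and was higher in both lines (0.49 ± 0.14 and 0.70 ± 0.14, adjusted p = 0.0136 and 0.000453). PSMD5 measured 56, 57.3 and 56.3 CPM in control, 43.4, 54.4 and 52.1 in CoCl2-tolerant and 55.4, 54.7 and 45.7 in low-glucose-tolerant libraries and PSMD10 20.5, 20.2 and 20.1 CPM in control, 24.9, 22.9 and 21.3 in CoCl2-tolerant and 25.9, 18.7 and 24.7 in low-glucose-tolerant libraries, and neither was called against control in either line. Exons of other genes cover 43.8% of the PSMD9 mRNA. PSMD5 was the 1 member with all 3 CoCl2-tolerant libraries under control, and its low-glucose-tolerant libraries lay under control too.

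Activators and the inhibitor showed no call in CoCl2-tolerant libraries. PSME1, which forms with PSME2 the PA28 cap that interferon raises, measured 95.6, 99.7 and 94.3 CPM in control, 113, 101 and 119 in CoCl2-tolerant and 161, 139 and 185 in low-glucose-tolerant libraries. It was higher in low-glucose-tolerant libraries without overlap (0.74 ± 0.12, adjusted p = 6.1e-05), while its partner PSME2 measured 54.6, 56 and 54.8 CPM in control, 72.8, 61.3 and 69.1 in CoCl2-tolerant and 70, 48.4 and 83.4 in low-glucose-tolerant libraries and was not called (0.29 ± 0.16, adjusted p = 0.116), with 12% of its mRNA in exons of another gene. PSME4, the nuclear cap PA200, was lower in low-glucose-tolerant libraries: 59.8, 63.5 and 51.6 CPM against 85.9, 79.4 and 83.3 in control (-0.51 ± 0.11, adjusted p = 0.000878). PSMF1, which inhibits the core, measured 90.2, 81.8 and 88.4 CPM in control, 107, 103 and 99.9 in CoCl2-tolerant and 135, 153 and 161 in low-glucose-tolerant libraries and was higher in low-glucose-tolerant libraries (0.78 ± 0.10, adjusted p = 1.01e-05). PSME3, a nuclear cap, was not called (0.01 ± 0.10 and 0.14 ± 0.10).

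All 4 chaperones of the core were called higher in low-glucose-tolerant libraries and 0 of 4 in CoCl2-tolerant ones. Of all genes, 34.6% and 17.9% were called higher there. For 3 of the 4, all CoCl2-tolerant libraries nevertheless lay above control. PSMG1 rose about as much in CoCl2-tolerant libraries (0.34 ± 0.14, adjusted p = 0.0715) as in low-glucose-tolerant ones. It was not called between the lines (0.01 ± 0.14, adjusted p = 0.964), so the contrast in calls does not hold for its level. PSMG3 measured 14.2, 15.8 and 14.7 CPM in control, 20.5, 17.5 and 17.7 in CoCl2-tolerant and 31.9, 24 and 42.4 in low-glucose-tolerant libraries, 1.14 ± 0.17, adjusted p = 3.3e-05 in low-glucose-tolerant libraries, and differed between the lines (-0.82 ± 0.17, adjusted p = 0.000688). PSMG2 measured 24.1, 23.4 and 23.3 CPM in control, 25.2, 27.6 and 32.9 in CoCl2-tolerant and 45.3, 33.8 and 49.3 in low-glucose-tolerant libraries and rose there by 0.86 ± 0.14 (adjusted p = 0.0001), with 17.3% of its mRNA in exons of another gene. PSMG1 (0.33 ± 0.14, adjusted p = 0.0464) and PSMG4 (0.35 ± 0.14, adjusted p = 0.0398) were near the threshold. Each lost its call with library totals, a 2-group fit or the replicate block. Over all alternatives run, PSMG1 lost its call in 13 and kept it in 5, and PSMG4 lost it in 7 and kept it in 11. The low-glucose-tolerant libraries of PSMG1 (24.6, 16.9 and 23.6 CPM) overlapped control (17.2, 17.4 and 17.3 CPM). POMP, which completes the core with the chaperones, was instead called only in CoCl2-tolerant libraries: it measured 37.1, 41 and 37 CPM in control, 63.5, 59.7 and 68.5 in CoCl2-tolerant and 46.8, 27.9 and 47.1 in low-glucose-tolerant libraries (0.74 ± 0.16, adjusted p = 0.00328 and 0.08 ± 0.16, adjusted p = 0.674).

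Base composition ran with the direction in low-glucose-tolerant libraries. The 7 members called lower had a median mRNA GC content of 41.5% (37.9 to 46.5), the 22 called higher 52.2% and the 17 not called 48.3%. Across the 46 members, GC content and log2 difference correlated at r = 0.60, against 0.13 over 17707 genes, and at 0.18 in CoCl2-tolerant libraries. The measures differ, since the value over 17707 genes takes GC content from each gene's longest transcript and not from the main mRNA. The members share libraries and are not independent. With a per-library trend on length and GC removed, 16 members were higher and 6 lower in low-glucose-tolerant libraries (median log2 difference 0.05). In CoCl2-tolerant ones 19 were higher and 1 lower (median 0.18). Of all 17707 genes under that setting, 6367 were higher and 6811 lower in low-glucose-tolerant libraries (median -0.04). In CoCl2-tolerant ones 3829 were higher and 4254 lower (median -0.02). Members were thus called higher in low-glucose-tolerant libraries about as often as all genes. PSMB8, PSMB10, PSMC2, PSMG3 and PSMA4 kept their calls in low-glucose-tolerant libraries, while those of PSMB5, PSMG1 and PSME4 were lost, and PSMB6 read -0.08 and was not called. PSMD14, not called in low-glucose-tolerant libraries as reported above, was called higher there at 0.48 (adjusted p = 0.0216) with the trend removed.

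**Figure D5:**
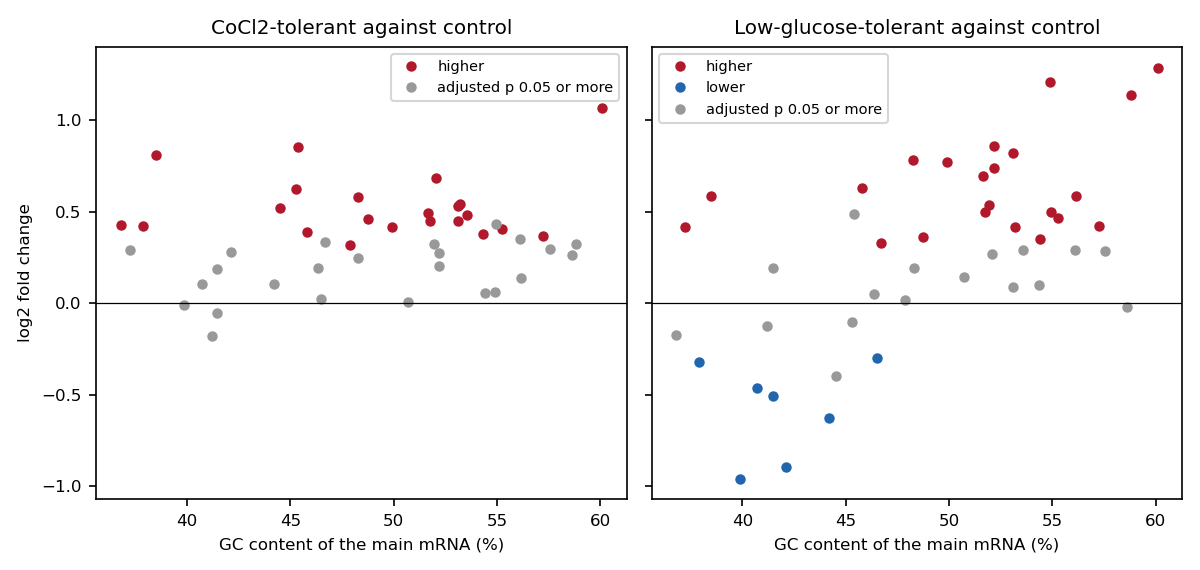
The log2 fold change against control (y axis) of the 46 tested members against the GC content of the main mRNA (x axis, %), CoCl2-tolerant left and low-glucose-tolerant right, coloured by call. Members called lower in low-glucose-tolerant libraries all lie between 37.9% and 46.5% GC.

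Genes that work beside the proteasome were read from lists drawn by function. Among 20 partners, 7 were higher and 0 lower in CoCl2-tolerant libraries, and 12 higher and 2 lower in low-glucose-tolerant ones. The shares called, 35.0% and 70.0%, were close to the 36.1% and 69.2% of all genes. ADRM1, a ubiquitin receptor of the cap with 24.8% of its mRNA in exons of other genes, was higher in both (0.66 ± 0.11 and 0.62 ± 0.11), while SEM1, a small lid subunit, was called in neither (0.43 ± 0.21 and 0.36 ± 0.21). AKIRIN2, which brings proteasomes into the nucleus, rose by 0.82 ± 0.10 and 0.76 ± 0.10. ZFAND2A, an arsenite-inducible proteasome-binding factor, rose most, by 1.01 ± 0.13 and 2.70 ± 0.13 (adjusted p = 3.73e-05 and 4.45e-10). TXNL1 and PITHD1 rose in low-glucose-tolerant libraries by 0.91 and 0.94, and UCHL5, a deubiquitinase of the cap, fell (-0.87 ± 0.16).

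Of 14 genes that control proteasome transcription, 8 were higher and 0 lower in CoCl2-tolerant libraries, and 7 higher and 1 lower in low-glucose-tolerant ones. That is 57.1% called in each, beside 36.1% and 69.2% of all genes. NFE2L1 measured 325, 333 and 342 CPM in control, 549, 486 and 469 in CoCl2-tolerant and 593, 801 and 695 in low-glucose-tolerant libraries, higher in both without overlap (0.59 ± 0.12, adjusted p = 0.00169 and 1.06 ± 0.12, adjusted p = 2.25e-06). NGLY1, which processes NFE2L1 by removing its sugar chains, was called only in CoCl2-tolerant libraries (0.81 ± 0.12, adjusted p = 0.000182 and 0.19 ± 0.12, adjusted p = 0.181). MAFG, a small partner of NFE2L1 on DNA, rose by 0.87 ± 0.11 and 1.76 ± 0.12, and MAFF by 0.60 ± 0.14 and 3.77 ± 0.14. KEAP1, which holds NFE2L2 down, rose by 0.67 ± 0.13 and 1.22 ± 0.13. HSF1, the heat shock factor, was called only in low-glucose-tolerant libraries (0.88 ± 0.11).

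Ubiquitin genes numbered 3 higher and 0 lower of 6 in CoCl2-tolerant, and 4 higher and 2 lower in low-glucose-tolerant libraries, where 36.1% and 69.2% of all genes were called. UBA6, a ubiquitin-activating enzyme, rose in CoCl2-tolerant and fell in low-glucose-tolerant libraries (0.39 ± 0.14 and -0.89 ± 0.14).

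Interferon and antigen-processing genes that usually accompany the immunoproteasome were mostly lower in low-glucose-tolerant libraries. Of 17 tested, 3 were higher and 3 lower in CoCl2-tolerant libraries, and 4 higher and 11 lower in low-glucose-tolerant ones, beside the 3 immunoproteasome subunits that were higher there. In CoCl2-tolerant libraries 35.3% were called, against 36.1% of all genes, and in low-glucose-tolerant ones 23.5% were higher and 64.7% lower, against 34.6% each of all genes. TAP1, the peptide transporter next to PSMB9, measured 45, 46.9 and 43.6 CPM in control, 60.3, 50.8 and 49.9 in CoCl2-tolerant and 72.1, 86.1 and 84.4 in low-glucose-tolerant libraries and was higher in low-glucose-tolerant libraries (0.84 ± 0.11, adjusted p = 1.36e-05). IRF1, a transcription factor that interferon induces, rose in both (0.72 ± 0.11 and 1.34 ± 0.11). GBP1, which interferon induces, fell in low-glucose-tolerant libraries (-2.15), and JAK1, which starts the signal, fell in both (-0.64 and -0.51). IRF9 also read lower in low-glucose-tolerant libraries (-2.34), on 155, 168 and 27 counts in the 3 groups, but 100% of its mRNA lies in exons of another annotated gene, so the reads cannot be assigned to it. The shares are 15.4% for TAP1 and 16.2% for IRF1.

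In the direct comparison of the lines, which reuses the tolerant libraries of both comparisons above, 15 members were higher in CoCl2-tolerant and 8 in low-glucose-tolerant libraries, 23 of 46 in all, where 63.9% of all genes were called (31.9% and 32.0%). Libraries did not overlap for 13 members higher and 6 lower in CoCl2-tolerant than in low-glucose-tolerant libraries, where 31.7% and 31.5% of all genes, 63.1% together, did not. The higher ones in CoCl2-tolerant libraries were 5 alpha subunits, 6 non-ATPase subunits, 2 ATPases, PSMB1 and PSME4. Those higher in low-glucose-tolerant libraries were PSMB7, PSMB8, PSMB9, PSMD7, PSME1, PSMF1, PSMG2 and PSMG3.

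The counts depend on single libraries. In CoCl2-tolerant against control, leaving out 1 control library gave 9 to 11 called, without CoCl2-tolerant replicate 1 there were 13 and without replicate 3 there were 14, all higher and 0 lower. Over all genes, leaving out a control library lowered the calls from 6459 to between 4463 and 4620. A fit of those 2 groups alone called 35 higher and 0 lower. In low-glucose-tolerant against control, leave-one-out counts ran from 23 to 34, and without low-glucose-tolerant replicate 2 there were 29 higher and 5 lower. In the direct comparison, leaving out CoCl2-tolerant replicate 3 gave 15 called, and without low-glucose-tolerant replicate 2 the split was 10 higher and 12 lower.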

How the data were processed

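The deposited files hold raw counts per gene that the authors made with featureCounts on GRCh38, per the submitters' processing notes, which also name DESeq2. The sources used here give no aligner, annotation or strand setting. The labels' protocols describe mRNA cut to fragments of about 200 bases. Of 36018 Ensembl IDs, 35938 had a symbol and 76 took one from GENCODE 29, which also gave positions, length, GC content and exon overlap.

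The 9 libraries were fitted together in edgeR 4.0.16 (R 4.3.3) with its default low-count filter, TMM factors (0.922 to 1.04), group means and the quasi-likelihood test, with Benjamini-Hochberg adjustment over 17902 genes at 0.05. The script was tested on simulated data. Over the comparisons it recovered 49% to 63.5% of changes set at 1.5-fold and 98% of those set at 2-fold. Of the calls, 7.6% to 8.7% were false, above the 5% aimed at by the threshold of 0.05. DESeq2 1.42.0 was an alternative. Ratios of counts, with 0.5 added to each count, were compared by exact permutation. Alternatives changed the test, normalization, filter, libraries, length and GC trend, replicate block and overlapped members, the last chosen after seeing the data.

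Replicate numbers were not treated as pairs in the main fit. Residual correlations were -0.594 to 0.324 for the same number and -0.677 to 0.586 for different numbers. With 3 libraries per group, these overlapping ranges cannot decide whether libraries of the same number were pairs. No 2 libraries were the same within sampling noise. The members and gene lists were chosen with earlier results of these data known. Named genes were a stated set (catalytic, activator and chaperone genes and some partners), the 5 largest rises and falls among called members, and up to 3 called genes per partner list. Other members and partners named were added for their role after their values were seen. Some genes of the partner lists are not reported here by name.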

Additional observations from a re-analysis of the deposited data

Results flagged for a closer look

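For 23 members the CoCl2-tolerant and low-glucose-tolerant lines differed when compared directly with edgeR's quasi-likelihood test (adjusted p under 0.05, 3 libraries each), which is a test of the difference between their responses because both are measured from the same control libraries. Over all genes 63.9% were called in this comparison.

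Members higher in low-glucose-tolerant libraries, as the log2 value of CoCl2-tolerant minus low-glucose-tolerant, were PSMB8 at -1.15, PSMG3 at -0.82, PSMG2 at -0.58, PSME1 at -0.54, PSMF1 at -0.53, PSMB9 at -0.45, PSMB7 at -0.35 and PSMD7 at -0.24. Alpha subunits higher in CoCl2-tolerant libraries were PSMA4 at 1.18, PSMA2 at 0.95, PSMA6 at 0.92, PSMA3 at 0.57 and PSMA7 at 0.44. Cap subunits higher there were PSMD12 at 0.75, PSMD1 at 0.73, PSMD14 at 0.73, PSMC6 at 0.60, PSMC5 at 0.42, PSMD6 at 0.32, PSMD11 at 0.30 and PSMD2 at 0.28. PSME4 stood at 0.45 and PSMB1 at 0.39. PSMA2 and PSMA6 are among the members with over 50% of their mRNA in exons of other genes. The call of PSMB9, whose libraries overlapped between the lines, was lost in 7 alternative settings and kept in 11. That of PSMA2 was lost in 5 and kept in 12.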

How the results depend on the processing

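The main counts of members called were 22, 29 and 23 (CoCl2-tolerant and low-glucose-tolerant against control, and the lines against each other). In CoCl2-tolerant against control, fitting only the 2 groups compared gave 35 (8552 of all genes were called, against 6459), and leaving out 1 library gave 9 to 31, always with 0 lower. Leave-one-out counts were 23 to 34 in low-glucose-tolerant against control and 15 to 22 between the lines. The replicate block gave 22, 26 and 21 called members. Library totals, which move the median of all genes to -0.11 in low-glucose-tolerant against control, gave 19 higher and 8 lower there, and 18 and 5 between the lines. With the length and GC trend removed the low-glucose-tolerant value of PSMB6 was -0.082 and that of PSMD12 was 0.0225, both not called. Under the same setting 2 values that were not called changed sign and were called: PSMD14 in low-glucose-tolerant against control at 0.4824 and PSMB6 between the lines at 0.2323. The cause was not tested. Of 3012 alternative values for single named genes, 2832 stayed on the same side of the threshold, of which 65 changed sign without being called, 109 lost the call, 67 gained one and 4 are those that reversed. The ratios kept their direction under every alternative run, and their exact test with the replicate block gives 0.25 at the smallest. Depth limits PSMA2, PSMA8 and PSMB11.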
